A study of Rattus norvegicus with 10 samples.

Results

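Messenger RNAs of the mitochondrial ribosomal proteins were followed in axons of adult and embryonic rat sensory neurons. The 73 genes were those with a single symbol in the platform annotation that starts with Mrpl or Mrps followed by a number, out of 14217 genes measured. Each gene was represented by 1 probe set, the one with the highest mean over the 10 arrays. By symbol, 46 genes belong to the large subunit and 27 to the small subunit. The rule distinguishes upper from lower case, so that 3 family genes written mrpl9, mrpl11 and mrpl24 in the annotation were not members and are given separately. Mrps36 was not analysed here.

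Mitochondria translate the few proteins encoded by their own DNA, all of them subunits of the respiratory chain and the ATP synthase, on a ribosome of their own. The RNA of this ribosome comes from mitochondrial DNA, whereas its proteins are encoded in the nucleus, translated in the cytosol and imported. Part of the proteins have homologues in the bacterial ribosome, and the others are found in mitochondria and not in bacteria. In neurons, messenger RNAs of mitochondrial proteins are among those found in axons, far from the cell body.

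The adult group held 5 arrays with axonal RNA of adult rats, and the embryonic group held 5 arrays with axonal RNA of embryonic day 16 rats. Explants of dorsal root ganglia, which contain the cell bodies of sensory neurons, grew for 4 days in chambers with compartments, and axons longer than 1 cm were taken from the outer compartment. The labels speak of biological replicates, each from "an adult rat" or "an E16 rat embryo", and do not say whether animals were pooled. No strain, sex or treatment is given for either stage, and the p-values measure the spread between these arrays.

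The values are log2 probe set values of an Affymetrix rat expression array, and a difference of 1 is a 2-fold difference. As a background level, each array was given the 95th percentile of the values of 87 probe sets whose genes belong to unrelated tissues. The standard deviation of all values of an array fell into a wide class, adult arrays 4 and 5 and embryonic arrays 1 and 5 (1.96 to 2.09), and a narrow class, the other 6 arrays (1.52 to 1.71). Of all genes, 4959 to 9778 exceeded background on adult arrays and 6306 to 8752 on embryonic arrays. Added poly-A control transcripts had means of 7.75 to 11.99 on adult arrays and of 2.00 to 2.65 on embryonic arrays. The embryonic means were below the background levels of the embryonic arrays, 3.23 to 3.88. The handling of these controls, and any other difference in preparation, cannot be told apart from stage in the changes given here. Sensory neuron markers were present: 8 of 11 exceeded background on all adult arrays and 9 of 11 on all embryonic arrays. Prph, Nefl, Nefm and Tubb3, which encode neuronal filament and tubulin proteins, fell in adult axons in limma's fit. All 15 macrophage and leucocyte markers had changes above 0, and 8 of them rose in adult axons in that fit; 10 of the 15 exceeded background on all adult arrays and not on all embryonic arrays, and 2 did so on all 10.

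The median of the 73 genes was 4.40, 3.91, 4.34, 6.51 and 7.14 on adult arrays 1 to 5, against 6.37, 6.05, 6.27, 5.50 and 6.22 on embryonic arrays 1 to 5. In log2 values, adult arrays lay on both sides of the embryonic range, with 3 below it and 2 above it. The mean of these medians was 5.26 ± 1.46 in adult axons and 6.08 ± 0.35 in embryonic axons (SD, n = 5 each). Ranked among all genes of an array, the 73 genes had median percentiles of 65.7, 58.7, 68.6, 78.9 and 85.8 on adult arrays 1 to 5. On embryonic arrays 1 to 5 these were 81.3, 84.6, 85.4, 78.4 and 79.3. By rank, adult array 4 thus lay within the embryonic range and adult array 5 just above it. In such bulk samples, fewer axons with an RNA and less of that RNA per axon cannot be told apart. The 2 high adult arrays were those of the wide class. Hybridisation controls, which are added in fixed amounts, moved the other way on adult arrays: their means were 10.50 and 9.15 on adult arrays 4 and 5, and 12.13, 12.83 and 12.77 on adult arrays 1 to 3. On embryonic arrays 1 to 5 these means were 10.76, 11.63, 12.01, 12.42 and 10.55, so they were lower on the wide arrays in both stages. The 3′ minus 5′ difference of the actin control probe sets, a sign of RNA quality, was 3.03, 3.66, 5.21, 6.04 and 5.53 on adult arrays 1 to 5, against 4.34 to 5.52 on embryonic arrays. For Gapdh it was 3.47, 4.48, 3.89, 3.81 and 5.80 on adult arrays 1 to 5, against 3.62 to 5.46 on embryonic arrays. Actin thus divided the adult arrays as the 73 genes did and Gapdh did not, and the part of these controls in the result was not tested.

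**Figure D1:**
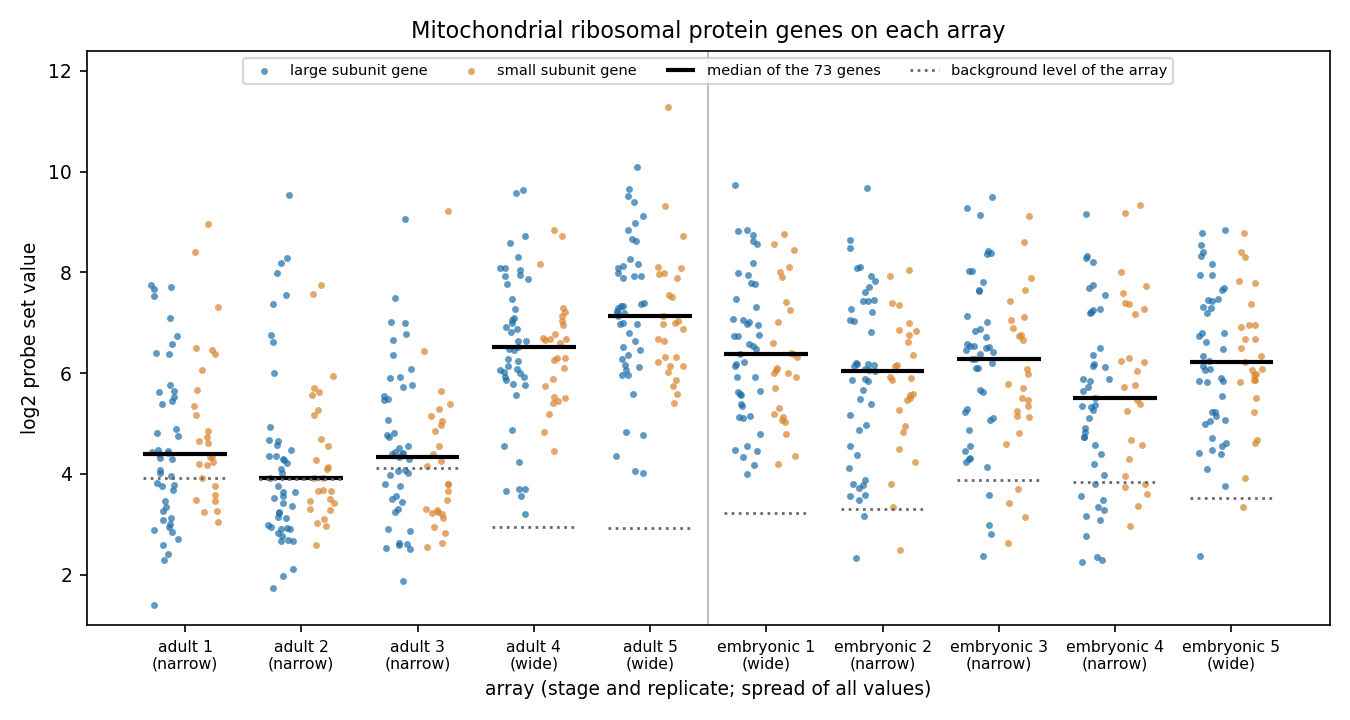
Log2 probe set values (vertical axis) of the 46 large subunit and 27 small subunit genes on each of 5 adult and 5 embryonic arrays (horizontal axis), with the median of the 73 genes as a bar and the background level as a dotted line. The medians of adult arrays 1 to 3 lie between 3.91 and 4.40, close to background, and those of adult arrays 4 and 5 lie at 6.51 and 7.14.

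Detection followed the same division. Of the 73 genes, 47, 37, 40, 73 and 73 exceeded background on adult arrays 1 to 5, against 73, 70, 65, 57 and 71 on embryonic arrays 1 to 5. Of all genes, 6217, 5942, 4959, 9419 and 9778 did so on adult arrays 1 to 5, against 8752, 8212, 6306, 6338 and 7887 on embryonic arrays 1 to 5. The background level itself was 3.92, 3.90, 4.12, 2.95 and 2.92 on adult arrays 1 to 5, and 3.23, 3.30, 3.88, 3.83 and 3.53 on embryonic arrays 1 to 5. On all adult arrays 24 of the 73 genes exceeded background (22.8% of all genes), and on all embryonic arrays 53 did so (30.5% of all genes). On all 10 arrays 22 genes exceeded background (17.3% of all genes). A further 31 did so on all embryonic arrays and not on all adult arrays (13.2% of all genes). Only 2 genes, Mrpl40 and Mrps5, did so on all adult arrays and not on all embryonic arrays (5.52% of all genes). They are named for this count, after their values were seen.

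The question put to each gene was whether its level differed between adult and embryonic axons. Most genes had lower means in adult axons, but the spread among adult arrays was wide, and limma's test across all probe sets called 0 of the 73 genes at an adjusted p of 0.05, with a lowest adjusted p of 0.172. Of all genes it called 1.26%, with 0.612% higher and 0.647% lower in adult axons. Without adjustment, 10 of the 73 had a p under 0.05 (13.3% of all genes), 9 of them lower (7.01%) and 1 higher (6.28%) in adult axons. The change was below 0 for 61 genes (50.1% of all genes) and above 0 for 12. Its median was -0.60, with quartiles of -1.09 and -0.24, beside a median of -0.001 over all genes. It was -1.03 without adult replicate 5, -0.30 without adult replicate 2 and -0.33 without adult replicate 3. A change below -1 was measured for 20 genes (10.6% of all genes), and a change above 1 for 2 genes (10.3% of all genes), Mrpl19 and Mrps31. The 95% intervals of the single changes had half-widths of 0.69 to 2.63, and the smallest change called over all genes was 1.35, so that changes of the size of the median could not be resolved gene by gene. Over all 10 arrays, sensory neuron markers moved in the same direction, with a median change of -2.38. Of the 11 markers, 9 had a change below 0, and 2, Nefh (0.11) and Calca (0.18), had one above 0. The median change of these markers was -2.82 in the wide and -2.30 in the narrow arrays, whereas the 73 genes had 0.45 and -1.47. The log2 summed value of the sensory neuron markers was 9.57 to 11.31 on adult arrays and 11.79 to 13.59 on embryonic arrays. Macrophage and leucocyte markers moved in the opposite direction, with summed values of 12.60 to 13.77 on adult arrays and 7.67 to 10.82 on embryonic arrays. All 4 blood cell markers had changes below 0, with summed values of 4.65 to 7.81 on adult and 8.19 to 10.56 on embryonic arrays. Of 9 Schwann cell markers, 6 had changes above 0 and 3 below. Their summed values were 9.24 to 12.05 on adult and 8.14 to 9.27 on embryonic arrays. The part of any of these marker lists in the result was not tested.

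**Figure D2:**
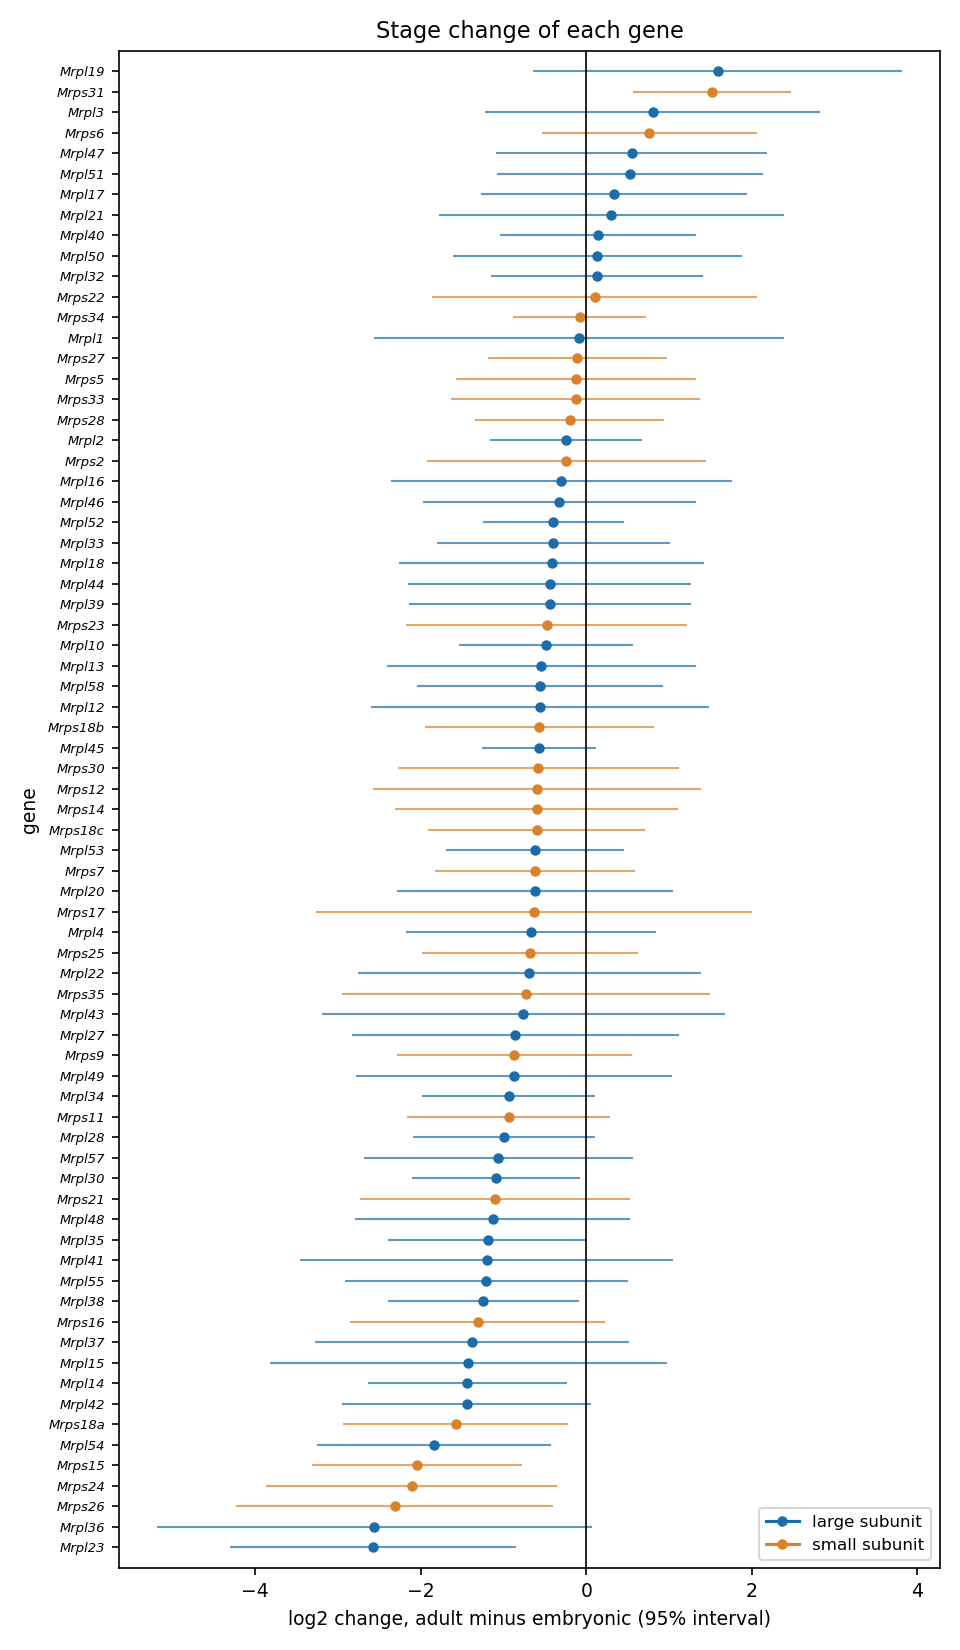
Log2 change, adult minus embryonic, of each of the 73 genes (points) with its 95% interval from limma (lines), ordered by size on the vertical axis and coloured by subunit. The points run from -2.58 for Mrpl23 to 1.59 for Mrpl19, 61 lie below 0, and 10 intervals leave out 0.

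Among proteins with a bacterial homologue, Mrpl23 had the most negative change. In bacteria its homologue sits at the exit of the tunnel through which the new protein leaves the large subunit. Mrpl23 (chromosome 1, 207116930 to 207124702, RefSeq annotation of GRCr8) had values of 4.29, 3.43, 3.79, 7.28 and 7.37 on adult arrays 1 to 5, against 7.76, 7.44, 8.03, 8.33 and 7.47 on embryonic arrays 1 to 5. It was the only one of the 73 genes whose stages did not overlap (1.86% of all genes in this direction, 3.54% in either), although adult arrays 4 and 5 fell short of the lowest embryonic array by little. The change was -2.58 ± 0.78 (SE), and limma's adjusted p was 0.215.

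Mrps15 had the lowest adjusted p of the 73 genes. Its bacterial homologue binds the RNA of the small subunit directly. Mrps15 (chromosome 5, 143606141 to 143616734) had values of 3.91, 4.14, 4.55, 6.11 and 7.0 on adult arrays 1 to 5, against 7.41, 6.86, 6.73, 7.18 and 7.78 on embryonic arrays 1 to 5. Adult array 5 alone reached into the embryonic range. The change was -2.05 ± 0.58 (SE), with limma's adjusted p at 0.172. Without adult replicate 5, Mrps15 was the 1 gene of the 73 called (1.74% of all genes), with a change of -2.51 and an adjusted p of 0.0353. It was likewise the 1 gene called with quantile scaling (1.65% of all genes), at -2.07 with an adjusted p of 0.0433, and with cyclic loess scaling (1.55% of all genes), at -1.78 with an adjusted p of 0.035.

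Mrpl36, whose bacterial homologue is a small zinc-binding protein of the large subunit, spread most among the adult arrays beside Mrps17. Its values were 4.31, 1.97, 2.61, 6.99 and 9.11 on adult arrays 1 to 5, against 7.79, 6.81, 8.02, 7.22 and 7.95 on embryonic arrays 1 to 5. Adult arrays therefore held both its lowest and its highest value. The change of -2.56 ± 1.19 (SE) had an adjusted p of 0.524 in limma's fit.

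Mrps24 and Mrps26 are proteins of the small subunit, the first with a bacterial homologue and the second specific to mitochondria. Mrps26 had values of 6.45, 5.62, 2.95, 8.16 and 8.10 on adult arrays 1 to 5, against 8.45, 8.05, 8.61, 9.33 and 8.41 on embryonic arrays 1 to 5. For Mrps24 they were 6.50, 3.91, 4.97, 7.22 and 8.72 on adult arrays 1 to 5, against 8.56, 7.39, 9.12, 8.01 and 8.79 on embryonic arrays 1 to 5. In both genes adult arrays 1 to 3 were below every embryonic array and the other adult arrays were within or near the embryonic range. The changes were -2.31 ± 0.87 for Mrps26 and -2.11 ± 0.80 for Mrps24 (SE), with adjusted p of 0.362 and 0.367 in limma's fit, in that order.

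Mrpl54 and Mrps18a were classed as mitochondria-specific, and despite its symbol Mrps18a lies in the large subunit. Mrpl54 had values of 5.76, 4.93, 7.0, 7.76 and 7.99 on adult arrays 1 to 5, against 8.62, 9.67, 8.36, 7.19 and 8.79 on embryonic arrays 1 to 5. Mrps18a (chromosome 9, 22350887 to 22367380) had 4.34, 5.70, 5.05, 7.13 and 7.96 on adult arrays 1 to 5, against 8.10, 7.35, 7.43, 7.37 and 7.83 on embryonic arrays 1 to 5. The embryonic values of Mrps18a lay within 1 unit of each other, while its adult values spread over more than 3. Their changes were -1.84 ± 0.64 and -1.58 ± 0.62 (SE), and limma's adjusted p was 0.310 for Mrpl54 and 0.389 for Mrps18a. The other 2 proteins of the Mrps18 family, Mrps18b and Mrps18c of the small subunit, had changes of -0.57 and -0.60. Mrps30, which also lies in the large subunit despite its symbol, had a change of -0.58.

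The other genes named by the rule for negative changes were Mrpl14 and Mrpl42 of the large subunit, both with a change of -1.44, and Mrps16 of the small subunit with -1.31. Mrps16 separated adult arrays 1 to 3, at 3.25, 3.29 and 2.62, from adult arrays 4 and 5, at 5.41 and 6.63. The embryonic arrays lay between 5.14 and 6.0. Limma's adjusted p was 0.372 for Mrpl14, 0.536 for Mrpl42 and 0.616 for Mrps16.

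Mrps31, a mitochondria-specific protein of the small subunit, had the lowest p among the genes with a positive change. Its values were 5.66, 5.56, 3.79, 4.83 and 5.41 on adult arrays 1 to 5, against 4.20, 2.48, 3.70, 3.37 and 3.91 on embryonic arrays 1 to 5. All but adult array 3 were above every embryonic array. Mrps31 exceeded background on 4 adult arrays and on only 2 embryonic arrays, so most of its embryonic values lay at background. The change was 1.52 ± 0.43 (SE), with limma's adjusted p at 0.177. Its mean on the wide adult arrays exceeded that on the narrow adult arrays by 0.12, within the spread of the narrow ones.

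Mrpl19, with a bacterial homologue, had the most positive change but no clear difference. The values were 7.66, 2.91, 4.30, 7.05 and 7.33 on adult arrays 1 to 5, against 5.12, 3.55, 4.30, 2.25 and 6.07 on embryonic arrays 1 to 5. Both stages contained low and high arrays. The change was 1.59 ± 1.01 (SE), with an adjusted p of 0.716 in limma's fit. Mrps6, a small subunit protein with a bacterial homologue, had 8.97, 7.58, 9.21, 8.84 and 11.28 on adult arrays 1 to 5, against 8.77, 7.93, 7.88, 9.17 and 8.31 on embryonic arrays 1 to 5. Its change of 0.76 ± 0.59 (SE) leaned on adult array 5, and its adjusted p was 0.792 in limma's fit. The remaining positive changes of named genes were 0.80 for Mrpl3, 0.55 for Mrpl47, 0.53 for Mrpl51, 0.34 for Mrpl17 and 0.10 for Mrps22. None of these passed the test, with adjusted p of 0.897 to 0.988.

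Genes with known places in the ribosome were described whatever their values. Mrpl10 and Mrpl12 form the stalk that recruits translation factors, and their changes were -0.49 and -0.56. For Mrpl12 the values were 5.65, 3.15, 6.35, 7.93 and 7.93 on adult arrays 1 to 5, against 7.94, 7.43, 5.28, 5.50 and 7.65 on embryonic arrays 1 to 5. High and low arrays occurred in both stages. Mrps12, at the decoding site of the small subunit, had a change of -0.59, and Mrps7, in its head, of -0.62. Mrpl44, which resembles the RNA-cutting enzyme RNase III, had a change of -0.44. Limma's adjusted p for these genes lay between 0.834 and 0.947.

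Mrpl45, which tethers the ribosome to the inner membrane, was the steadiest of the 73 genes over adult arrays. It had 6.73, 6.61, 6.77, 7.10 and 7.33 on adult arrays 1 to 5, against 8.18, 7.04, 6.72, 7.75 and 7.69 on embryonic arrays 1 to 5. The adult values ran over less than 1 unit, and those on arrays 4 and 5 were the highest of them. The change was -0.57 ± 0.31 (SE), with a 95% interval of -1.26 to 0.12 and an adjusted p of 0.637 in limma's fit. The remaining named genes, Mrpl33, Mrpl38, Mrpl41, Mrpl43, Mrpl53, Mrps17 and Mrps35, had changes between -1.25 for Mrpl38 and -0.40 for Mrpl33.

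**Figure D3:**
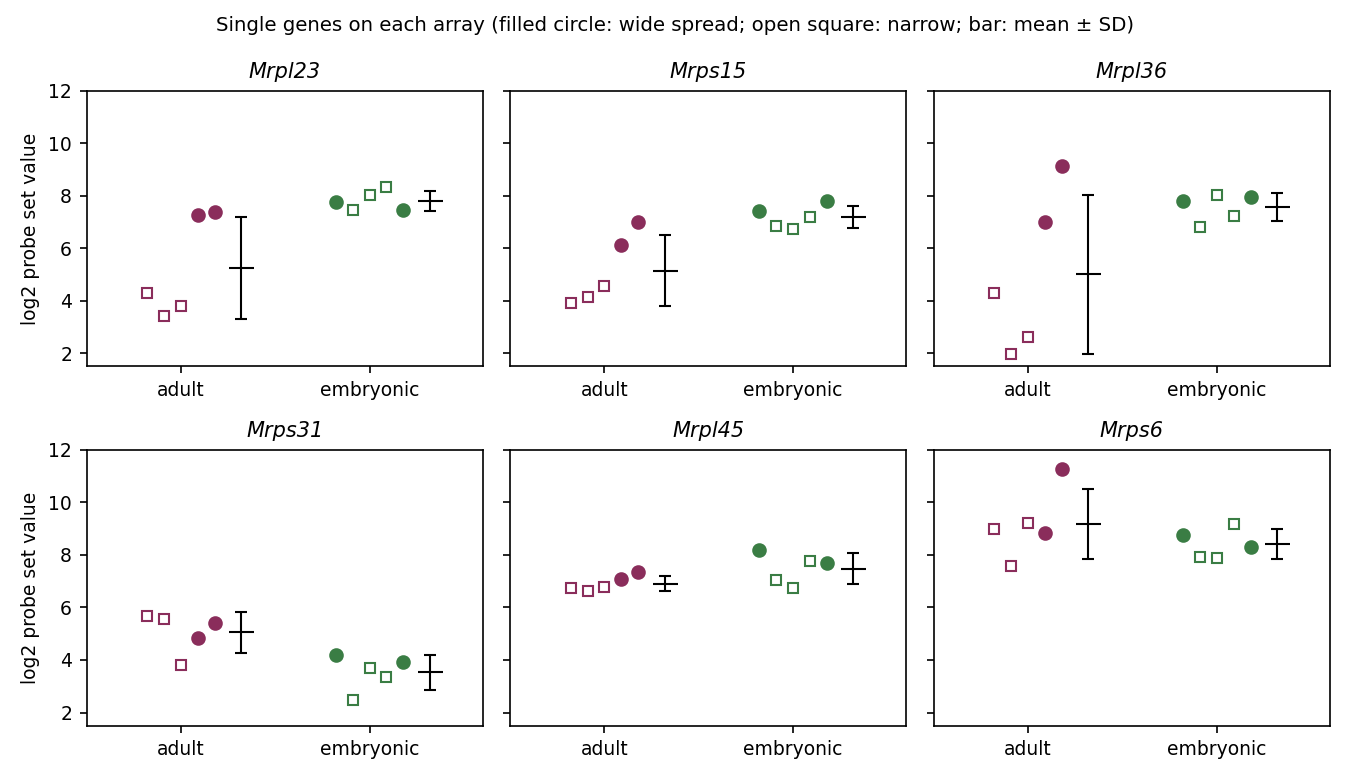
Log2 probe set values (vertical axis) of 6 genes on the 5 adult and 5 embryonic arrays (horizontal axis), with filled circles for arrays of wide spread, open squares for arrays of narrow spread, and mean ± SD beside them. In Mrpl23, Mrps15 and Mrpl36 the 3 narrow adult arrays lie below all embryonic arrays, in Mrps31 all but adult array 3 lie above them, and Mrpl45 has an adult SD of 0.30.

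In log2 values, the direction of the stage difference depended on the spread class of the arrays. Among the 3 adult and 3 embryonic narrow arrays, 65 genes had a change below 0 (53.4% of all genes) and the median change was -1.47. Among the 2 adult and 2 embryonic wide arrays, 52 genes had a change above 0 (51.6% of all genes) and the median change was 0.45. Both signs held for 44 genes, which were above 0 in the wide and below 0 in the narrow arrays (25.3% of all genes). A change below 0 in both classes was measured for 21 genes (28.1% of all genes), above 0 in both for 8 (26.3%), and the reverse pattern for 0 (20.3%). The classes were defined from the arrays and are not groups of the study, and the difference between their changes was not tested. The shares over all genes include weaker genes and are not matched for level.

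Limma's fit to the 6 narrow arrays called 4 of the 73 genes, all lower in adult axons (1.18% of all genes, 0.717% lower). The class came from the same values, and its adult arrays 1 to 3 are those where the 73 genes were low. The calls therefore describe these arrays and are no independent support for a stage difference. Mrpl23 had a change of -4.10 with an adjusted p of 0.0135, Mrps15 of -2.72 with an adjusted p of 0.025, Mrpl35 of -2.09 with an adjusted p of 0.0426, and Mrps16 of -2.45 with an adjusted p of 0.0467. Mrpl35, a large subunit protein with a bacterial homologue, had values of 4.08, 4.02 and 4.43 on adult arrays 1 to 3, against 6.14, 6.54 and 6.13 on embryonic arrays 2 to 4. Of the 5 adult arrays, Mrpl23 exceeded background on 3, Mrps15 on 4, Mrpl35 on 5 and Mrps16 on 2. The adult values under background were all on narrow arrays. All 4 genes exceeded background on all 5 embryonic arrays. In the fit to the 4 wide arrays, limma called 0 of the 73 genes and 0 of all genes, while 14 of the 73 had an unadjusted p under 0.05 (19.8% of all genes), 1 of them lower in adult axons. With spread class as a block over all 10 arrays, Mrps15 alone was called (1.94% of all genes), with a change of -2.05 and an adjusted p of 0.03.

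**Figure D4:**
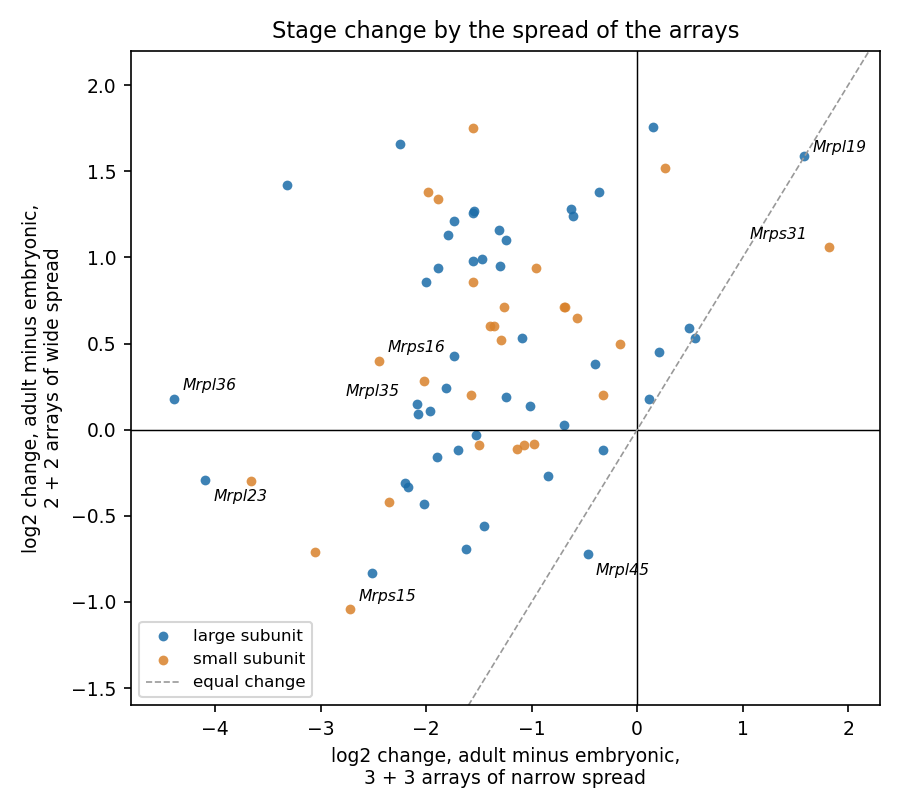
Log2 change, adult minus embryonic, of each of the 73 genes in the 4 arrays of wide spread (vertical axis) against the change in the 6 arrays of narrow spread (horizontal axis), coloured by subunit, with a dashed line of equal change. Most points lie left of 0 on the horizontal axis (65 genes) and above 0 on the vertical axis (52 genes).

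Within the adult group, both wide arrays were above all 3 narrow arrays in 59 of the 73 genes (28.2% of all genes), and below them in 0 (22.8% of all genes). The same order within the embryonic group held for 14 genes (17.2% of all genes). The median percentile of the 73 genes within an array was 58.7 to 85.8 on adult and 78.4 to 85.4 on embryonic arrays. All genes include weaker ones, so the shares in this paragraph do not compare genes of like level. The 3 narrow adult arrays were below all other arrays in 28 genes (6.03% of all genes), and below all narrow embryonic arrays in 29 genes (11.2% of all genes). The SD was larger over adult than over embryonic arrays in 64 genes (63.2% of all genes). Its median was 1.63 over adult arrays and 0.79 over embryonic arrays, beside 0.80 and 0.63 over all genes. Medians of fibroblast markers divided the adult arrays the same way, as did 4 of the 7 single markers, with medians of 8.33 and 7.29 on adult arrays 4 and 5 and of 3.16, 4.03 and 5.70 on adult arrays 1 to 3. Embryonic arrays had fibroblast marker medians of 3.94 to 5.25. The log2 summed value of these 7 markers was 6.39 to 11.67 on adult arrays and 7.62 to 9.35 on embryonic arrays. Satellite glia marker medians were 7.49 and 8.28 on adult arrays 4 and 5 and 4.10, 3.46 and 5.82 on adult arrays 1 to 3, against 4.14 to 6.52 on embryonic arrays, and 2 of the 6 single markers divided the adult arrays this way. The log2 summed value of these markers was 9.44 to 11.64 on adult arrays and 8.34 to 11.25 on embryonic arrays. The part of either marker list in the result was not tested.

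The order of the 73 genes within an array was compared by Spearman correlation between arrays, which all carry the same probe sets. This correlation is a description across genes, which are not independent replicates. It was 0.42 to 0.87 between adult arrays, with a median of 0.48, and 0.62 to 0.84 between embryonic arrays, with a median of 0.67. Between adult and embryonic arrays it was 0.78 to 0.85 where both were wide, 0.44 to 0.81 where 1 was wide and 1 narrow, and 0.35 to 0.56 where both were narrow. The range of the mixed pairs overlapped with that of each other kind, and the differences between pairs were not tested. Over all genes, the correlation between adult and embryonic arrays was 0.75 to 0.84 where both were wide and 0.61 to 0.71 where both were narrow. Where 1 was wide and 1 narrow it was 0.60 to 0.77 over all genes.

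Both subunits had nearly the same median change. It was -0.59 for the 46 large subunit genes and -0.60 for the 27 small subunit genes, a difference of 0.0. Without adult replicate 3 the medians were -0.48 and -0.27, and without adult replicate 2 they were -0.25 and -0.31. Without adult replicate 5 they were -1.05 and -1.03. Changes were below 0 for 37 of the large and 24 of the small subunit genes. With Mrps18a and Mrps30 counted in the large subunit, as in the structure, both medians were -0.60. Within the narrow arrays the medians were -1.54 for the large and -1.36 for the small subunit, and within the wide arrays 0.40 and 0.52. On single arrays the large minus small difference of the medians was -0.27, -0.24, 0.61, -0.11 and 0.24 on adult arrays 1 to 5, against 0.41, 0.18, 0.61, -0.42 and -0.02 on embryonic arrays 1 to 5. It took both signs in both stages, with means of 0.05 ± 0.37 in adult axons and 0.15 ± 0.40 in embryonic axons (SD, n = 5 each).

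Medians by the origin of the proteins also lay close together. The 42 genes with a bacterial homologue had a median change of -0.61, and the 31 mitochondria-specific genes one of -0.57. Within the Mrps18 family, Mrps18a and Mrps18b were classed as mitochondria-specific and Mrps18c as having a bacterial homologue, so these classes divide related proteins. With subunits assigned by structure, the 10 mitochondria-specific genes of the small subunit had a median of -0.30, against -0.62 for the 15 small subunit genes with a bacterial homologue. In the large subunit, the 21 mitochondria-specific genes had a median of -0.62, against -0.56 for the 27 with a bacterial homologue. These medians are descriptions with no test.

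Other nuclear genes for energy metabolism and for translation were set beside the 73 genes as descriptions. The 35 measured subunits of complex I, the entry point of the respiratory chain, had a median change of -1.16, with -1.83 in the narrow and -0.21 in the wide arrays. For 49 subunits of complexes III to V the median was -1.02, with -1.47 in the narrow and -0.26 in the wide arrays. Of these, Cox6b1, a subunit of cytochrome c oxidase, fell in adult axons by 1.99 with an adjusted p of 0.0429 in limma's fit. The 48 proteins of the cytosolic ribosome, which translates nuclear messages, had a median of -0.22, with -0.65 in the narrow and 0.29 in the wide arrays. The mitochondrial ribosomal genes had 0.45 in the wide arrays, so that 2 of these 4 groups had positive medians there and all 4 had negative medians in the narrow arrays.

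**Figure D5:**
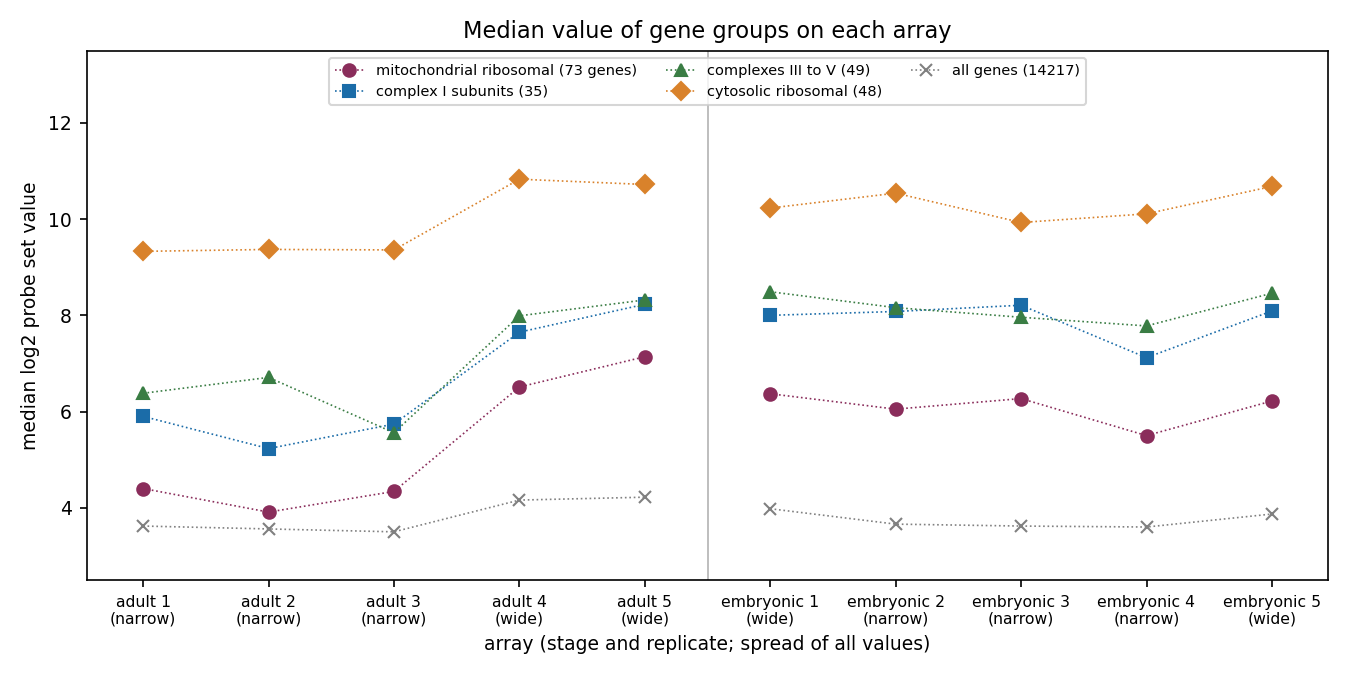
Median log2 probe set value (vertical axis) of the mitochondrial ribosomal genes, the complex I subunits, complexes III to V, the cytosolic ribosomal proteins and all genes on each adult and embryonic array (horizontal axis). The mitochondrial ribosomal median is 3.91 to 4.40 on adult arrays 1 to 3 and 5.50 to 6.37 on embryonic arrays, and heights are to be compared along a line and not between groups.

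Mitochondrial translation also needs proteins outside the Mrpl and Mrps names, and 0 of those measured passed limma's test. Of the ribosome proteins with other names, 5 were measured, with a median change of -0.34 from Gadd45gip1 at -1.15 and Chchd1 at -0.86 to Dap3 at 0.49. At an unadjusted p under 0.05 there were 0. The 13 translation factors had a median of 0.03, and 1 of them, Oxa1l, had an unadjusted p under 0.05. This protein, which inserts new proteins into the inner membrane, had 4.41, 3.07, 3.83, 6.18 and 6.44 on adult arrays 1 to 5, against 6.83, 6.49, 7.82, 7.81 and 6.98 on embryonic arrays 1 to 5. Oxa1l was thus lower on every adult than on every embryonic array (1.86% of all genes), with a change of -2.40 ± 0.64 (SE) and an adjusted p of 0.148. Lrpprc, which stabilises mitochondrial messenger RNA, followed with -1.26. The largest positive changes were 1.12 for Mtrf1l, a release factor, and 0.64 for Mtfmt, which formylates the initiator tRNA.

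Among 28 assembly factors of the ribosome the median change was -0.03, between -1.43 for Mtg1 and -1.33 for Dhx30 on one side and 1.03 for Nsun4 and 1.01 for Gtpbp10 on the other. The 18 genes that charge mitochondrial tRNAs had a median of -0.11, from Gatc at -1.19 and Gars1 at -1.07 to Yars2 at 0.72 and Rars2 at 1.02. The 17 genes for transcription and replication of mitochondrial DNA had a median of 0.13. Their extremes were Polg2 at -0.96 and Polrmt, the mitochondrial RNA polymerase, at -0.92, and Gabpa, an ETS transcription factor, at 1.75 and Mterf1 at 1.29. In each of these 3 lists 0 genes passed the test. At an unadjusted p under 0.05 in limma's fit, 2 assembly factors were higher in adult axons (6.28% of all genes). So were 2 of the genes for transcription and replication of mitochondrial DNA. Of the genes that charge mitochondrial tRNAs, 1, Gatc, was lower (7.01% of all genes).

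Further probe sets were available for 18 of the 73 genes, 24 probe sets in all. Of these, 11 had a change in the direction of the chosen probe set and 13 in the opposite one, and limma called 0. Only 12 exceeded background on at least 5 arrays, and 7 of these had the same direction. For Mrpl12 a second probe set had a change of -1.03 and an adjusted p of 0.169, against -0.56 for the chosen one. For Mrpl52 the probe sets disagreed, with 0.57 for the second and -0.40 for the chosen one. Other probe sets of Mrps15, Mrps24 and Mrps26 were above background on at most 1 array of either stage. The 3 genes written in lower case had changes of -0.68 for mrpl9, 0.33 for mrpl11 and -0.84 for mrpl24, and with them the median over 76 genes was -0.60.

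The 73 genes lie on 18 chromosomes, with 12 each on chromosomes 1 and 10. Promoters of 59 of them were matched by gene number in RefSeq sequences of GRCr8, as windows from 250 bases before to 50 bases after the gene start. The promoter table's start equalled the 5′ end of the gene record for 32 of the 59, the 4 shown among them. Promoters of 4 genes are shown because the genes differ in their values: Mrpl23 and Mrps15 had the lowest p-values among negative changes, Mrps18a lies in the large subunit against its symbol, and Mrpl45 was steady over the adult arrays. Each is given 5′ to 3′ on the strand of the gene over 280 bases, the last 30 of them from the gene start. Capitals mark matches to motifs of nuclear respiratory factor 1, ETS factors and YY1. The regions are chr1:207116680-207116959 on the plus strand for Mrpl23, chr5:143605891-143606170 on the plus strand for Mrps15, chr9:22367351-22367630 on the minus strand for Mrps18a and chr10:82804789-82805068 on the plus strand for Mrpl45.
Mrpl23: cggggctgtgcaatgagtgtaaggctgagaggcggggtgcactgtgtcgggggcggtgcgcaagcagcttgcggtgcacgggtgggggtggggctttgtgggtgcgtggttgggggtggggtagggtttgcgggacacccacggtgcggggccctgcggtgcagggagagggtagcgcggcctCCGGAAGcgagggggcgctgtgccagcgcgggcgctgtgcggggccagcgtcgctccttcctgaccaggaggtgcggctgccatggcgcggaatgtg
Mrps15: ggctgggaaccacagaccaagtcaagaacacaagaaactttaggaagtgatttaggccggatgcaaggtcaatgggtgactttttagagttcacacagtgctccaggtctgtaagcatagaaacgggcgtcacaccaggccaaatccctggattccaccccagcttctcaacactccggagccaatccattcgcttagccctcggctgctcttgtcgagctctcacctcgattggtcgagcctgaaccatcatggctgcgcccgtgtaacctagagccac
Mrps18a: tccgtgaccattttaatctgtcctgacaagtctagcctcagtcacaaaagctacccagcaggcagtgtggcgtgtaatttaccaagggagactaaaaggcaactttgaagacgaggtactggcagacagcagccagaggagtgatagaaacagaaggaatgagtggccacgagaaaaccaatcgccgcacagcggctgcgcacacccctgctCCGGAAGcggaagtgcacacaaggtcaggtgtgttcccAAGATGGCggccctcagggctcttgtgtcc
Mrpl45: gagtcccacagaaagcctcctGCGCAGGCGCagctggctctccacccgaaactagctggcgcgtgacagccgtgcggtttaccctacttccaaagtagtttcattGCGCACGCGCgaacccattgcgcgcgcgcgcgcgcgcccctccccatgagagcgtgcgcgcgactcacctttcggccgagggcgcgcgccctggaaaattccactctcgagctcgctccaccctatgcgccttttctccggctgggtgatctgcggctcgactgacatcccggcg

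The motifs were searched as letters on both strands: GCGCA and GCGC separated by 1 base of any kind for nuclear respiratory factor 1, CCGGAAG for ETS factors and AANATGGC for YY1, all of them known as regulators of nuclear genes for mitochondria. The motif of nuclear respiratory factor 1 occurred in 9 of the 59 promoters (15.3%), in 8.5% of the promoters of genes on the array and in 4.71% of all 27457 promoters. CCGGAAG occurred in 20 (33.9%), in 15.05% of array genes and in 9.22% of all promoters. AANATGGC occurred in 21 (35.6%), in 8.85% of array genes and in 7.36% of all promoters. At least 1 of these occurred in 38 of the 59 (64.4%), beside 27.6% of 11700 promoters of array genes, and matches of different motifs overlapped in 0 promoters. Mrps18b alone held all 3.

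In the promoters printed above, Mrpl45 held the motif of nuclear respiratory factor 1 at 2 places, Mrpl23 held CCGGAAG, Mrps18a held CCGGAAG and AANATGGC, and Mrps15 held none of the 3. CCAAT occurred in 26 of the 59 (44.1%, beside 37.29% of array genes), CACGTG in 6 (10.2%, beside 8.94%) and TATAAA in 7 (11.9%, beside 8.45%). Median GC content was 56.0% in the 59 promoters and 60.0% in those of array genes. Genes with and without a motif had similar changes, with medians of -0.57 and -0.61 for nuclear respiratory factor 1, -0.65 and -0.57 for CCGGAAG, and -0.58 and -0.62 for AANATGGC. A match describes the sequence and is no evidence of binding.

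A gene on the opposite strand started within 1000 bases upstream for 17 of the 59 genes (28.8%), beside 9.4% of 11496 array genes. Mrpl46 and Mrps11, one in each subunit, are such a pair, with starts 234 bases apart in the promoter table. The table's start of Mrps11 lies 219 bases from its gene record, and by the gene records the starts are 15 bases apart. Mrpl46 had a change of -0.33 and Mrps11 one of -0.94. Both followed the division of the adult arrays: Mrpl46 had 3.82, 2.68, 4.05, 6.47 and 6.36 on adult arrays 1 to 5, against 5.38, 4.12, 4.23, 6.14 and 5.14 on embryonic arrays 1 to 5. Mrps11 had 3.46, 4.55, 3.65, 5.89 and 6.31 on adult arrays 1 to 5, against 6.31, 5.58, 5.34, 5.25 and 6.07 on embryonic arrays 1 to 5. In both genes adult arrays 4 and 5 were higher than adult arrays 1 to 3. Other partners were Cyb5rl for Mrpl37, Helq for Mrps18c, and Fau, which encodes a protein of the cytosolic ribosome, for Mrpl49.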

How the data were processed

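Axonal RNA was measured on 10 arrays, 5 adult and 5 embryonic, grouped by the developmental stage in the labels. The deposited values are log2 probe set values made by the authors with RMA, per the submitters' processing notes (version and options: not given in the sources used here). Base 2 was taken from the range of the values. RMA shares information between arrays that are processed together. It compresses weak signals, so changes near background are understated. The deposited values did not have a common distribution, with array SDs of 1.52 to 2.09. A joint scaling of all 10 arrays therefore cannot be assumed. Precision depends on the number of arrays. There were 31099 probe sets, 57 of them controls. The change, adult minus embryonic, came from limma 3.58.1 (R 4.3.3; lmFit, eBayes, two-sided tests) on the other 31042, with Benjamini-Hochberg adjustment over all of them, a threshold of 0.05 and no covariate. The platform annotation, matched on gene number to RefSeq GRCr8, found all 73 genes under the same symbol. Background on each array was the 95th percentile over 87 probe sets (79 genes) of unrelated tissues, and wide and narrow arrays were divided at the middle of the range of their SDs. Named genes were those past the threshold, the 5 largest changes in each direction, the 5 highest and 3 lowest means in each subunit, and 12 fixed names, of which 2, Mrpl11 (lower case in the annotation) and Mrps36, were not members. The members and lists were chosen with earlier results of these data known. The fit was tested on simulated data. The alternatives were other scalings, a filter on weak probe sets, other variance models, array weights, blocks, spread classes, other background levels, other probe set choices and each array left out in turn.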

Additional observations from a re-analysis of the deposited data

Results flagged for a closer look

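Mrpl33, a large subunit protein with a bacterial homologue, had 1 array far from the others of its stage. Embryonic replicate 3 had a log2 value of 9.28, and the other embryonic arrays had 7.55 to 7.98. Among 78 groups of 5 values looked at this way, 1 was found, and chance marks about 1 in 20. The adult arrays of Mrpl33 ran from 5.55 to 9.52, and its change between the stages was -0.40.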

How the results depend on the processing

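Of all genes, 179 were called in the fit to all arrays, 316 after a filter on weak probe sets, 276 with spread class as a block, 0 in the wide arrays alone (2810 at an unadjusted p under 0.05 in limma's fit), and 101 to 248 when 1 array was left out. Of the 73 genes, 0 were called, but 1 (Mrps15) with quantile scaling, with cyclic loess scaling and with spread class as a block, 4 in the narrow arrays alone, and 0 to 1 when 1 array was left out; the 1 was Mrps15 without adult replicate 5. The cause was not tested. The median change of the 73 genes was -0.60, and -0.69 with quantile scaling, -0.36 with cyclic loess scaling, -0.62 with median centring and -0.68 with array weights. It ran from -1.03 without adult replicate 5 to -0.30 without adult replicate 2, moving more than 1.5 times also without adult replicate 3 (-0.33), and turned to 0.45 in the wide arrays alone, where the small subunit median was 0.52. Genes above background on all adult arrays numbered 24, 9 with the background at percentile 99 and 41 with 4 of 5 arrays required. Under all 22 alternatives 25 of the 73 genes kept the sign of their change, 20 lower and 5 higher in adult axons, and Mrpl47 kept it in those it entered, all but the filter on weak probe sets. Subunit medians moved apart with array weights, to -0.73 for the large and -0.51 for the small subunit. The inclusion of the 3 genes in lower case was chosen after seeing the data and left the median at -0.60. Replicate numbers did not pair the samples: deviations of same-numbered arrays correlated at -0.122, 0.055, 0.172, -0.111 and 0.276, and 1 adult array correlated best with its own number. With a replicate block, 135 of all genes and 0 of the 73 were called, with a median of -0.60.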
